A study of Mus musculus with 24 samples.

Results

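The genes described here are 10 that encode the mitochondrial fission and fusion machinery: Dnm1l, Mff, Fis1, Mief1, Mief2, Mtfp1, Mtfr1l, Mfn1, Mfn2 and Opa1. They were taken by symbol from a table of 55487 genes, and all 10 were among the 15828 genes with enough counts to be tested. Bulk poly(A) mRNA-Seq was available from mouse embryonic fibroblasts (MEFs) that were wild-type (WT) or lacked the energy sensor AMPK (AMPK KO, made by knocking out its catalytic subunit genes Prkaa1 and Prkaa2). Cells of each genotype received DMSO as vehicle, the AMPK activator MK-8722 or torin1, an inhibitor of the kinase MTOR, and each of these 6 groups held 4 libraries, 24 in all. Each genotype was represented by 1 MEF line, WT cells at passages 12 to 15 and AMPK KO cells at passages 16 to 19, so genotype, line and passage range cannot be told apart.

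Mitochondria divide when the dynamin-family GTPase DRP1, the product of Dnm1l, is recruited from the cytosol by receptors in the outer membrane (MFF, MIEF1, MIEF2 and, less strongly in mammals, FIS1) and constricts the organelle. They fuse through the mitofusins MFN1 and MFN2 in the outer membrane and OPA1 in the inner membrane. AMPK is known to phosphorylate MFF and MTFR1L, and MTOR is known to promote translation of Mtfp1, neither of which RNA levels report.

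Total counts were between 26900240 and 34192685 per library. Summed over 11 fibroblast markers, the level was 11300 to 16100 counts-per-million (CPM) in WT DMSO and 4940 to 5550 in AMPK KO DMSO libraries. Not every marker was high. Across the 6 groups, Fn1 averaged 2090 to 6330 CPM, Vim 1780 to 5040 and Col1a1 450 to 3580. S100a4 averaged 115 to 196, Pdgfrb 41.5 to 93.5, Col1a2 13 to 2500 and Col3a1 6.01 to 114. Pdgfra, Thy1, Dcn and Lum averaged at most 4.28, 1.45, 0.197 and 0.00785 CPM in any group. The summed markers of epithelial, endothelial, blood and skeletal muscle cells stayed at or below 8.60 CPM in every library. Prkaa1 was at 80.9 ± 2.0 CPM in WT and 70.9 ± 2.9 in AMPK KO DMSO libraries (SD, n = 4), and Prkaa2 at 4.74 ± 1.1 and 3.21 ± 0.97. Counts over a whole gene do not report a deletion of part of it, so these levels do not check the genotype labels.

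Dnm1l, at chr16:16312230-16358959 on the minus strand (GRCm38), has 7 annotated transcripts, which differ in a pair of coding exons in the variable domain of DRP1. They are shown here because the share of 1 form moved with torin1. Each line gives the messenger RNA 5′ to 3′, from 20 bases before to 20 bases after the position of the exons. Dnm1l-201 and Dnm1l-202 join the flanking exons directly, Dnm1l-204 and Dnm1l-207 hold the 33-base exon, and Dnm1l-203 holds both, while Dnm1l-205 and Dnm1l-206 hold neither exon and none of the printed runs; capitals mark the 78-base exon found in Dnm1l-203 and in none of the other 6 transcripts.
Dnm1l-201: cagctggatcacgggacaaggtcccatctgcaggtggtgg
Dnm1l-207: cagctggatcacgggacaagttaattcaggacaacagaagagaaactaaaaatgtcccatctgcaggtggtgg
Dnm1l-203: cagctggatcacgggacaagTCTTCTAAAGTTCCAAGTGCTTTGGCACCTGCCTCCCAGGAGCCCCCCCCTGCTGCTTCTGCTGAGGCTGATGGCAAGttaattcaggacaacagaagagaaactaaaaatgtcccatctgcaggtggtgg
The 78-base exon (26 codons) lies at chr16:16318764-16318841 and the 33-base exon (11 codons) at chr16:16318445-16318477. Dnm1l-203 also starts at another first exon than Dnm1l-201, at chr16:16358499-16358533.

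Per transcript length, the receptors Fis1 and Mff were the most abundant members and Mtfp1 the least. In WT DMSO libraries Fis1 averaged 124 ± 7.7 transcripts-per-million (TPM) and Mff 108 ± 4.5 (SD, n = 4), and the ranges of the 2 genes did not overlap. Mtfr1l, Mfn2, Mfn1 and Dnm1l followed at 55.7, 49.3, 45.0 and 43.5 TPM, each overlapping its neighbour in this order. Opa1 averaged 26.6 TPM, Mief1 16.7, Mief2 12.1 and Mtfp1 1.59, and each of these was apart from the next. In AMPK KO DMSO libraries Fis1 (159 ± 6.1 TPM) again stood above Mff (107 ± 2.2) and Mtfp1 (6.52 ± 0.41) below Mief2 (16.1 ± 1.1), whereas Mfn2, Opa1, Mfn1 and Mief1 formed a run of overlapping neighbours from 41.9 to 31.3 TPM. The TPM of Mff rests in part on short forms. In WT DMSO libraries Mff-210 (586 bases, a processed transcript) held 26.8% of it and Mff-204 (435 bases) 27.5%. In CPM, which is not per length, Mfn2, Dnm1l, Opa1, Mfn1 and Mtfr1l averaged 126, 97.6, 72.2, 62.9 and 59.5 there. Mff averaged 57.2 CPM and Fis1 53.7. Across the 6 group means, expression of Mtfp1 spanned 2.1 on the log2 CPM scale, Mief1 1.0 and the other 8 genes 0.23 (Mff) to 0.63 (Mfn2).

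**Figure D1:**
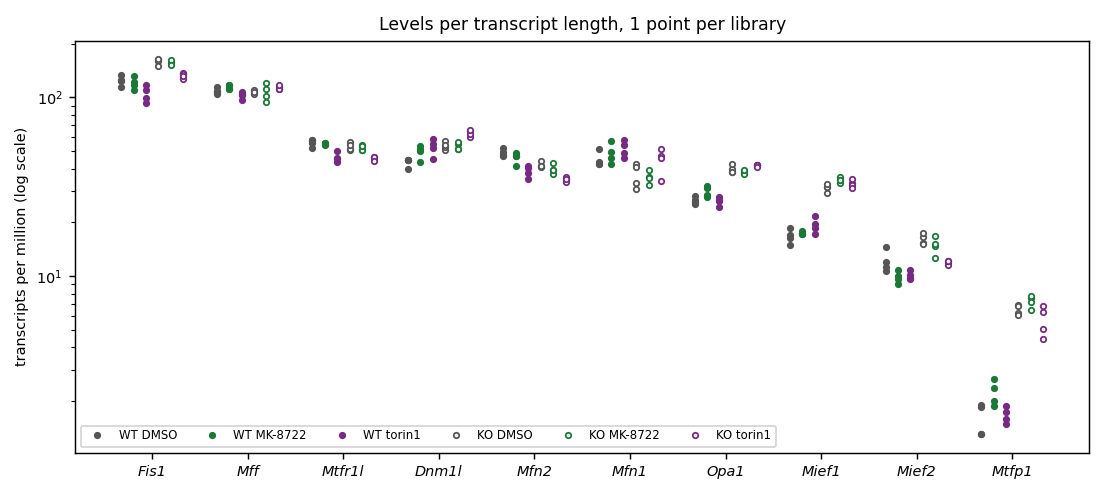
TPM (log axis) of the 10 genes, 1 point per library, filled for WT and open for AMPK KO, in grey for DMSO, green for MK-8722 and purple for torin1. Fis1 and Mff lie between 93.2 and 163 TPM in all libraries, while Mtfp1 lies at 1.31 to 2.65 TPM in WT and 4.44 to 7.79 TPM in AMPK KO libraries.

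Levels within a gene were compared as CPM scaled for library composition. A gene was called when edgeR's quasi-likelihood test gave an adjusted p below 0.05 (Benjamini-Hochberg, over all 15828 genes) and the fold change was at least 1.2. MK-8722 raised 1 of the 10 genes in WT cells, Mtfp1, where 15.7% of all tested genes were called and 10.0% were called higher. It raised or lowered none of the 10 in AMPK KO cells, where 1.56% of all genes were called. Torin1 lowered 3 of the 10 in WT cells (Fis1, Mtfr1l and Mfn2), with 47.6% of all genes called and 21.1% called lower, and 5 of the 10 in AMPK KO cells (the same 3 genes, Mief2 and Mtfp1), with 43.5% called and 17.6% called lower; it raised none in either genotype. The median log2 fold change of the 10 genes under torin1 was -0.13 in WT and -0.22 in AMPK KO cells, against 0.04 and 0.06 over all tested genes. AMPK KO cells differed from WT cells in DMSO at 6 of the 10 genes, 4 higher (Mief1, Mief2, Mtfp1 and Opa1) and 2 lower (Mfn1 and Mfn2), where 56.9% of all genes were called, 30.9% higher and 26.0% lower. The shares of members called were below the share of all genes in WT cells under either drug, and close to it or slightly above it for torin1 in AMPK KO cells and for the genotypes.

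**Figure D2:**
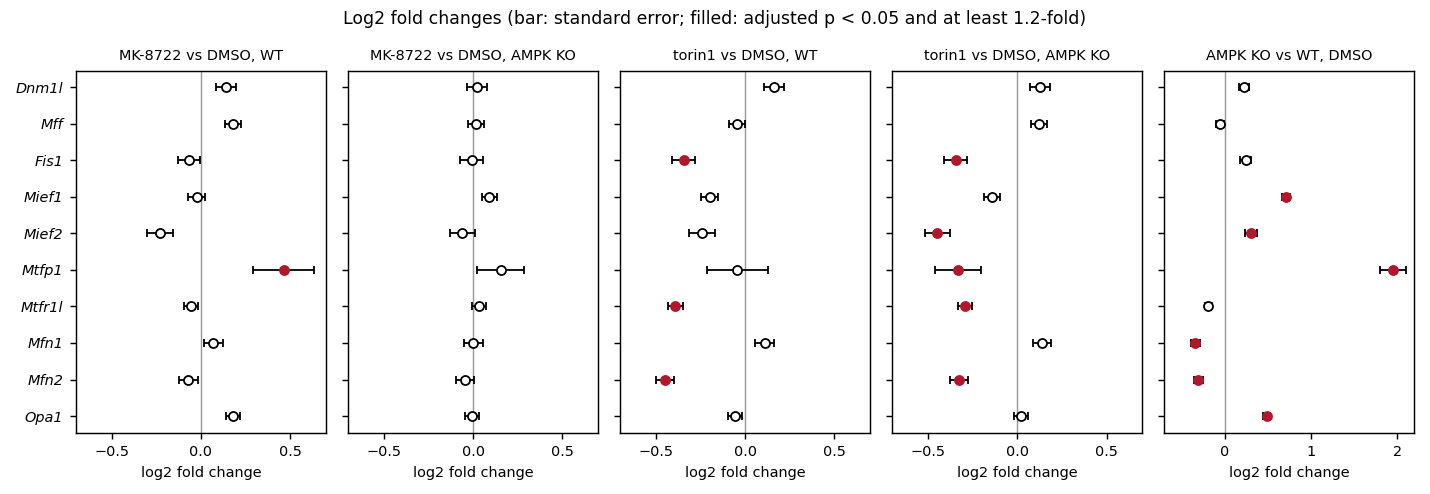
Log2 fold changes with standard errors of the 10 genes in 5 comparisons; filled points passed both thresholds and the axis of the genotype comparison is wider. Fis1, Mtfr1l and Mfn2 lie between -0.29 and -0.45 under torin1 in both genotypes, and Mtfp1 lies at 1.95 in AMPK KO against WT.

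Dnm1l, encoding the fission GTPase itself, passed the thresholds in none of the comparisons. Its CPM in the WT DMSO libraries were 98.9, 93.1, 98.1 and 100, with torin1 106, 95.6, 118 and 117, and with MK-8722 116, 96.9, 109 and 108. In both drug groups 1 library, replicate 2, lay within the range of the DMSO libraries and the other 3 above it. The fold changes were below 1.2 (log2 0.16 ± 0.056 SE, adjusted p = 0.015 for torin1; 0.14 ± 0.056, adjusted p = 0.065 for MK-8722). In AMPK KO cells all torin1 libraries (122 to 128 CPM) were above the DMSO libraries, again under 1.2-fold (log2 0.13 ± 0.055, adjusted p = 0.054). MK-8722 and DMSO libraries overlapped there (0.02 ± 0.055, adjusted p = 0.91). AMPK KO DMSO libraries, at 111, 114, 117 and 115 CPM, were all above the WT DMSO libraries (log2 0.23 ± 0.055, adjusted p = 0.00088), also short of 1.2-fold. Scaled by library size alone, a setting that shifts the median gene by 0.15 in this comparison, this difference was 0.37 (adjusted p = 3.1e-06) and passed, as it did with at least 10 counts in every library (0.28, adjusted p = 6.5e-05).

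The estimated share of 1 transcript form of Dnm1l did differ in WT cells. Such shares are estimated from short reads, and the error of assigning reads to transcripts is not given. As a share of the TPM of the gene, Dnm1l-203, the form with both exons, made up 7.64, 4.95, 6.47 and 5.63% in the WT DMSO libraries and 14.8, 12.8, 11.8 and 9.24% in the WT torin1 libraries. No torin1 library reached down to the DMSO range, and the difference of 6.0 percentage points passed the test of transcript usage (edgeR diffSpliceDGE, adjusted p = 0.00033 over 52024 transcripts, called at a difference of at least 5 points). WT MK-8722 libraries lay between, at 10.2 ± 0.78% (n = 4), all above the DMSO libraries, with a difference of 4.02 points and an adjusted p of 0.11. The share in AMPK KO cells was 9.44 ± 1.5% in DMSO, 10.4 ± 1.1% with MK-8722 and 11.5 ± 1.9% with torin1 (adjusted p = 1 for each drug), and whether the torin1 effect on the share differs between genotypes was not tested. The forms with the 33-base exon alone made up 18.1 ± 2.1% of the TPM in WT DMSO and 18.2 ± 1.8% in WT torin1 libraries. Dnm1l-201 and Dnm1l-202, which join the flanking exons directly, together made up 66.5 ± 5.1% (62.1 to 72.6%) and 59.4 ± 4.6% (55.4 to 66.0%), with overlapping libraries.

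Dnm1l was 1 of 2 members called for transcript usage under torin1 in WT cells, out of 9 with at least 2 transcripts tested, where 1.87% of 10768 genes were called. The other was Mief1, through Mief1-207, a processed transcript of 419 bases with no annotated coding sequence. It was estimated at 0 counts in all 4 WT DMSO libraries and at 0, 6.08, 11.6 and 18.4 counts in the WT torin1 libraries, or 7.87 ± 6.5% of the TPM of the gene (adjusted p = 0.0072). The estimate was 0 in 1 of the 4 torin1 libraries. The call was lost without WT torin1 replicate 4 and when shares were taken of counts in place of TPM. Requiring at least 10 counts in every library removed Mief1-207 before testing, so that setting could not have kept the call. None of the 9 genes was called in the other comparisons, where the shares of all genes called were 0.186% for MK-8722 in WT, 0.0743% for MK-8722 and 0.762% for torin1 in AMPK KO, and 1.97% for the genotypes. At an unadjusted p below 0.05 these comparisons held 2, 1, 8 and 6 of the 65 member transcripts tested, in that order.

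**Figure D3:**
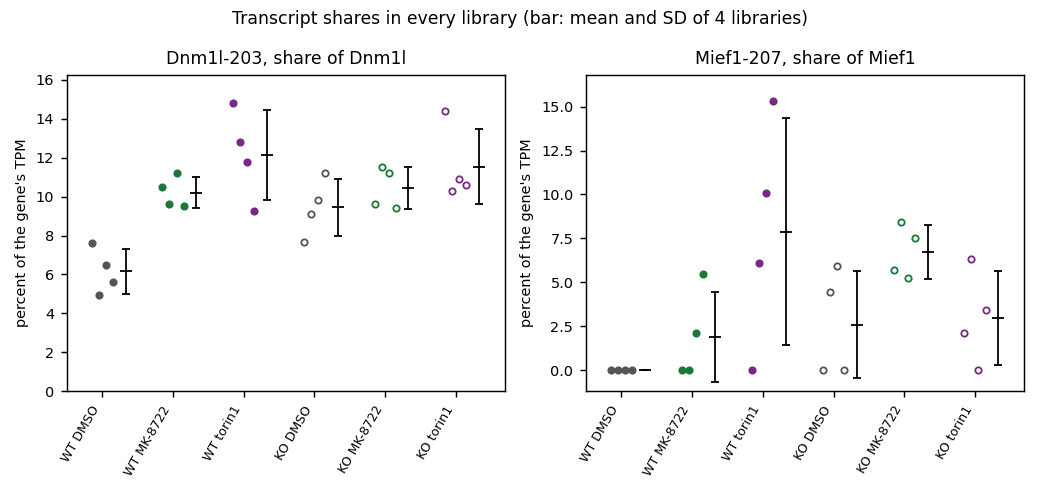
Share of the TPM of the gene, in percent, taken by Dnm1l-203 (left) and Mief1-207 (right) in every library, with the mean and SD of 4 libraries beside the points. Dnm1l-203 lies at 4.95 to 7.64% in WT DMSO and at 9.24 to 14.8% in WT torin1 libraries, while Mief1-207 is estimated at 0 in many libraries.

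Among the receptors that bring DRP1 to the outer membrane, Fis1 fell with torin1 in both genotypes. Its CPM were 52.9, 57.5, 54.7 and 49.9 in WT DMSO and 43.9, 47.3, 40.1 and 38.1 in WT torin1 libraries. They were 65.6, 64.9, 58.4 and 65.7 in AMPK KO DMSO and 46.2, 52.7, 51.0 and 50.7 in AMPK KO torin1 libraries. The torin1 libraries lay below the DMSO libraries without overlap in each genotype, and the fall was 0.34 on the log2 scale in both (SE 0.064 and 0.063, adjusted p = 6.3e-05 and 6.2e-05), with an interaction of 0.00 ± 0.090 (adjusted p = 1). Scaled by library size alone, which moves the median gene by 0.14 under torin1 in WT cells, Fis1 stayed lower there but below 1.2-fold (log2 -0.24). AMPK KO DMSO libraries were all above WT DMSO libraries at log2 0.24 ± 0.063 (adjusted p = 0.0015), short of 1.2-fold, and passed it under library size alone (0.38) and with at least 10 counts in every library (0.30).

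Mief1, which encodes an adaptor that binds DRP1 directly, differed between genotypes more than between treatments. It was measured at 45.3, 43.0, 45.8 and 52.6 CPM in WT DMSO libraries and at 74.5, 76.5, 75.1 and 79.2 in AMPK KO DMSO libraries, which were all higher. The difference was log2 0.71 ± 0.045 (1.64-fold, adjusted p = 1.3e-12). With torin1, all 4 libraries lay below the DMSO libraries in WT (38.9 to 41.4 CPM; log2 -0.20 ± 0.046, adjusted p = 0.00064) and in AMPK KO cells (67.9 to 70.5; -0.14 ± 0.045, adjusted p = 0.0087), in neither case by 1.2-fold. Counts and TPM differed in direction here: with the average transcript length as an offset the WT value was 0.096 (adjusted p = 0.23), since the mean effective length of the Mief1 transcripts was 4091 bases in WT DMSO and 3338 in WT torin1 libraries.

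Its paralogue Mief2 was lower in level, at 15.8, 12.4, 13.2 and 13.5 CPM in WT DMSO libraries. AMPK KO DMSO libraries held 17.8, 15.6, 18.3 and 16.1 CPM, and AMPK KO torin1 libraries 12.8, 12.4, 12.3 and 12.3. Torin1 thus brought Mief2 in AMPK KO cells below every DMSO library of that genotype (log2 -0.45 ± 0.070, adjusted p = 8.4e-06). In WT cells the change with torin1 was -0.24 ± 0.072 (adjusted p = 0.0057) and with MK-8722 -0.23 ± 0.072 (adjusted p = 0.020), both under 1.2-fold, and the interaction with genotype for torin1 was not past the threshold (-0.21 ± 0.10, adjusted p = 0.21). With the length offset both WT changes passed (-0.37 and -0.31), as did torin1 without WT DMSO replicate 2 or 3 (-0.30 and -0.27) or with no filter on low counts (-0.27), and MK-8722 without WT DMSO replicate 2 (-0.29). The call of Mief2 as higher in AMPK KO cells (log2 0.30 ± 0.070, adjusted p = 5e-04) fell under 1.2-fold without WT DMSO replicate 2 (0.21) or 3 (0.24), without AMPK KO DMSO replicate 3 (0.26), and with no filter on low counts (0.26).

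Mff, the receptor that AMPK phosphorylates, had the narrowest range of the 10 genes. In WT cells the MK-8722 libraries (67.2, 65.5, 64.0 and 62.4 CPM) were all above the DMSO libraries (58.0, 56.0, 54.1 and 60.7), a difference of log2 0.18 ± 0.045 (adjusted p = 0.0043) that is under 1.2-fold. With the length offset it was 0.063 (adjusted p = 0.45), and the TPM of the groups overlapped (104 to 114 with DMSO, 111 to 118 with MK-8722). In AMPK KO cells the MK-8722 and DMSO libraries overlapped (0.02 ± 0.045, adjusted p = 0.91). The difference between those effects was -0.16 ± 0.064 with an adjusted p of 0.085. Torin1 gave -0.05 ± 0.045 in WT (adjusted p = 0.39) and 0.12 ± 0.045 in AMPK KO cells (adjusted p = 0.026), both under 1.2-fold. With the length offset these values were -0.18 (adjusted p = 0.0049) and -0.02 (adjusted p = 0.76), also under 1.2-fold.

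**Figure D4:**
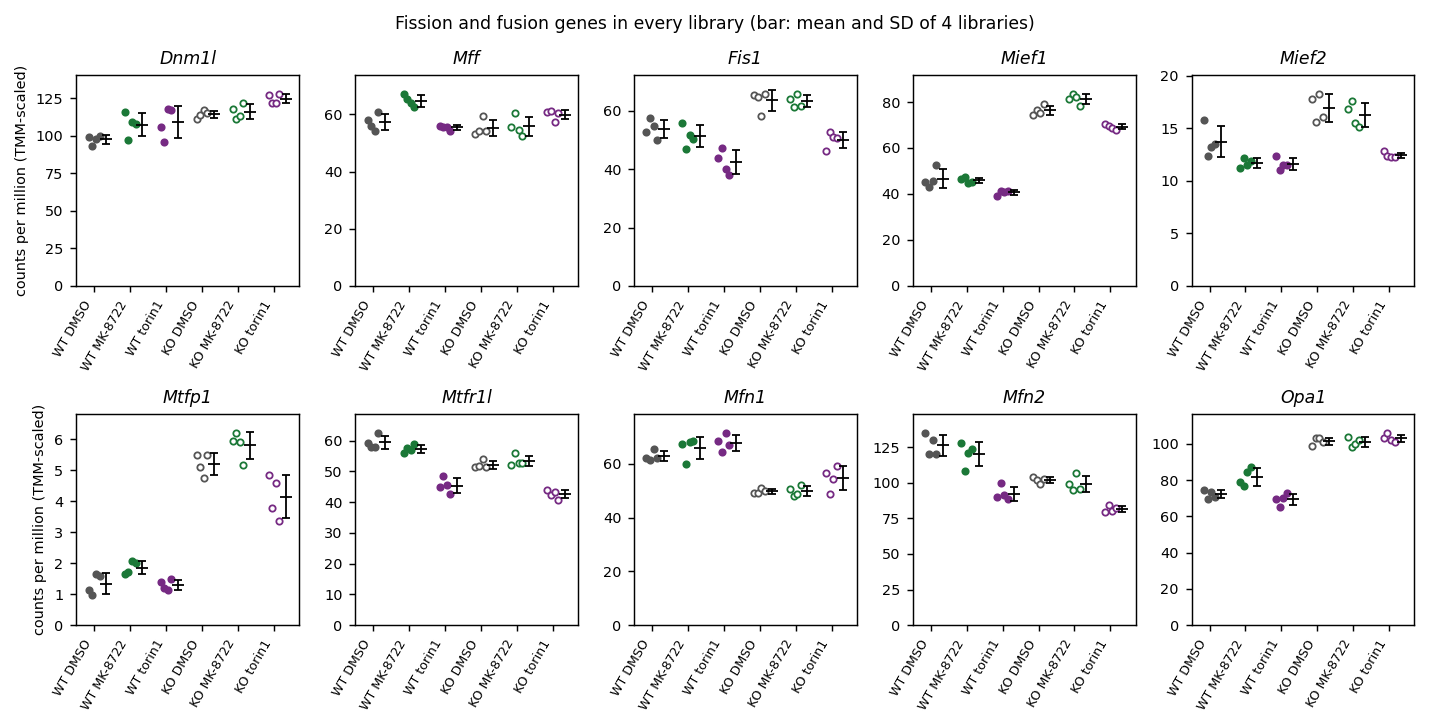
TMM-scaled CPM of each gene in every library (filled points WT, open points AMPK KO; bars give the mean and SD of 4 libraries), each panel starting at 0. Mief1, Mtfp1 and Opa1 are higher in every AMPK KO library than in any WT library, and Mfn2 is lowest with torin1 in each genotype.

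Of the other fission factors, Mtfr1l, an outer membrane protein and AMPK substrate, fell with torin1. Its CPM were 59.4, 58.1, 58.0 and 62.5 in WT DMSO against 44.9, 48.6, 45.5 and 42.7 in WT torin1 libraries, and 51.3, 51.9, 53.9 and 51.4 in AMPK KO DMSO against 44.0, 42.5, 43.2 and 40.8 in AMPK KO torin1 libraries. The groups did not overlap in either genotype. The falls were 0.39 ± 0.040 on the log2 scale in WT (adjusted p = 1.2e-08) and 0.29 ± 0.040 in AMPK KO cells (adjusted p = 1.4e-06), and the latter was under 1.2-fold when scaled by library size alone (-0.23).

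Mtfp1, an inner membrane protein linked to fission, showed the largest difference between genotypes and the fewest counts, 27 to 206 per library. WT DMSO libraries were at 1.12, 0.987, 1.66 and 1.60 CPM and AMPK KO DMSO libraries at 5.50, 5.11, 4.76 and 5.49. The groups were far apart, and Mtfp1 was 3.86-fold higher in AMPK KO cells (log2 1.95 ± 0.15, adjusted p = 4.1e-11). Leaving out any 1 library gave log2 values from 1.79 to 2.04.

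The drug effects on Mtfp1 were less secure. MK-8722 brought WT libraries to 1.64, 1.72, 2.08 and 2.00 CPM, overlapping the DMSO libraries, and the rise of 0.46 ± 0.17 (adjusted p = 0.037) was lost without WT DMSO replicate 1 (adjusted p = 0.14) or 2 (0.16), without WT MK-8722 replicate 3 (0.10) or 4 (0.097), with no filter on low counts (0.11), with the length offset (0.051), when WT DMSO and MK-8722 libraries were fitted alone (0.11), and with DESeq2 (0.053). Torin1 lowered Mtfp1 in AMPK KO cells (4.85, 3.78, 4.60 and 3.36 CPM; log2 -0.33 ± 0.13, adjusted p = 0.038), which was lost without AMPK KO DMSO replicate 1 (adjusted p = 0.079) or 2 (0.052), without AMPK KO torin1 replicate 2 (0.052) or 4 (0.083), with library size alone (0.099), with no filter (0.062) and with the length offset (0.067). In WT cells torin1 gave -0.04 ± 0.17 (adjusted p = 0.84), and the interaction was -0.29 ± 0.22 (adjusted p = 0.46). The genes whose 6 group means, centred on the log2 CPM scale, were nearest to those of Mtfp1 among 15827 other genes were Zfp993 (root mean square difference 0.0937), Il6ra (0.122) and En2 (0.125). En2 was near the floor, with group means of log2 CPM between -3.62 and -1.55, so its pattern rests on few counts.

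Among the fusion genes, the mitofusin Mfn2 fell with torin1. It was at 135, 120, 130 and 120 CPM in WT DMSO and at 89.8, 99.6, 91.2 and 88.9 in WT torin1 libraries. With AMPK absent, Mfn2 was at 104, 102, 99.2 and 103 in DMSO and at 79.8, 84.4, 79.9 and 82.3 with torin1. No torin1 library overlapped the DMSO libraries of its genotype, and Mfn2 fell by 0.45 ± 0.051 on the log2 scale in WT (adjusted p = 6.2e-08) and by 0.33 ± 0.051 in AMPK KO cells (adjusted p = 9.2e-06). The difference between those effects was 0.12 ± 0.073 (adjusted p = 0.32).

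Mfn1, in contrast, was at 62.1, 61.5, 65.5 and 62.3 CPM in WT DMSO and 68.5, 64.4, 71.4 and 66.9 in WT torin1 libraries, and the groups overlapped (log2 0.11 ± 0.052, adjusted p = 0.072). In AMPK KO cells the value was 0.14 ± 0.052 (adjusted p = 0.027), under 1.2-fold. The ratio of Mfn1 to Mfn2 TPM was 0.915 ± 0.12 in WT DMSO and 1.35 ± 0.16 in WT torin1 libraries (ranges 0.806 to 1.08 and 1.11 to 1.45), and 0.874 ± 0.11 and 1.28 ± 0.20 in AMPK KO cells (0.745 to 0.976 and 0.985 to 1.43). The ranges were apart in both genotypes, and these ratios were not tested.

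In DMSO both mitofusins were lower in AMPK KO than in WT cells, Mfn1 at 49.0, 49.1, 50.8 and 50.0 CPM and Mfn2 at the values above. The differences were log2 -0.34 ± 0.052 for Mfn1 (adjusted p = 3.5e-06) and -0.30 ± 0.051 for Mfn2 (adjusted p = 1.3e-05), with no overlap of libraries. Scaled by library size alone they were -0.20 and -0.16, under 1.2-fold, and Mfn2 was also under it with at least 10 counts in every library (-0.25).

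Opa1, the inner membrane fusion GTPase, was at 74.7, 69.8, 73.7 and 70.8 CPM in WT DMSO and at 98.9, 103, 103 and 101 in AMPK KO DMSO libraries. Every AMPK KO library was above every WT library, by log2 0.49 ± 0.040 (1.40-fold, adjusted p = 1.3e-10). In WT cells the MK-8722 libraries (79.1, 76.6, 84.4 and 87.3 CPM) were all above the DMSO libraries (log2 0.18 ± 0.040, adjusted p = 0.0016), under 1.2-fold. In AMPK KO cells MK-8722 gave 0.00 ± 0.040 (adjusted p = 0.98), and the interaction of -0.18 ± 0.057 had an adjusted p of 0.028, the only adjusted p below 0.05 among the interactions of the 10 genes.

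**Figure D5:**
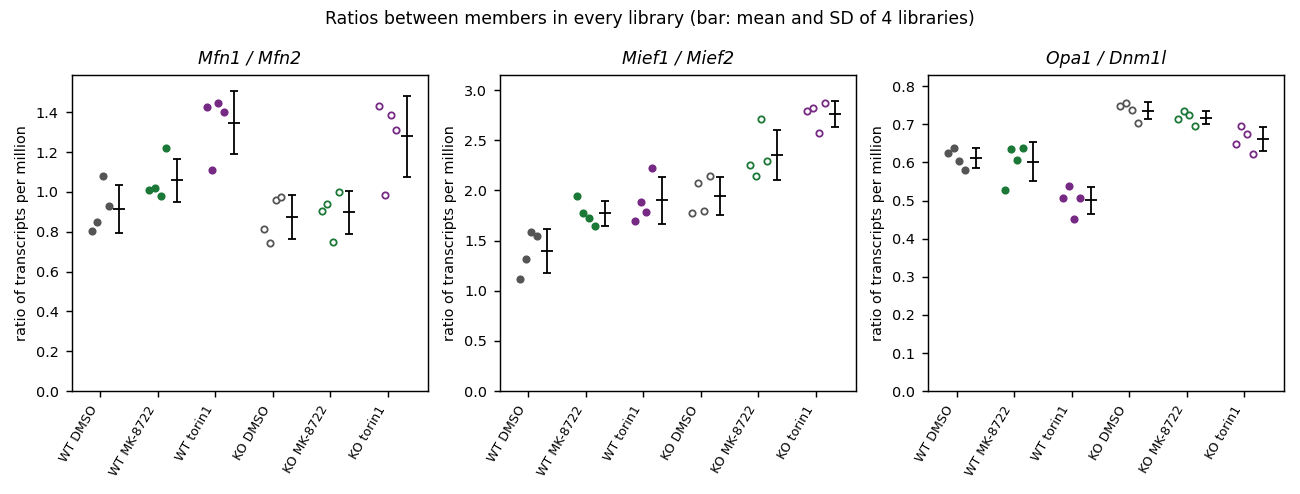
Ratios of TPM between members in every library, with the mean and SD of 4 libraries. Mfn1 over Mfn2 lies at 1.11 to 1.45 in WT torin1 libraries against 0.806 to 1.08 in WT DMSO libraries, and Opa1 over Dnm1l is 0.737 ± 0.023 in AMPK KO against 0.612 ± 0.026 in WT DMSO libraries.

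Whether the drugs acted differently in cells without AMPK was tested as an interaction. None of the 10 genes was called for MK-8722 or for torin1, where 12.8% and 7.07% of all genes were called; at an unadjusted p below 0.05 there were 2 and 1, and DESeq2 called 0 in each. For MK-8722 in AMPK KO cells, where edgeR and DESeq2 both called 0, 1 of the 10 had an unadjusted p below 0.05 (Mief1) and the largest log2 fold change was 0.16 (Mtfp1). Libraries of the compared groups did not overlap at 3 of the 10 genes for MK-8722 in WT (25.5% of all genes), 4 for torin1 in WT (51.8%), 0 for MK-8722 in AMPK KO (11.7%), 6 for torin1 in AMPK KO (53.8%) and 8 for the genotypes (64.0%). Set directly against MK-8722 in WT cells, torin1 gave lower levels of 4 genes (45.7% of all genes called, 21.2% lower, 48.9% not overlapping, against 6 of the 10). These were Fis1 (log2 -0.28 ± 0.064, adjusted p = 0.00072), Mtfp1 (-0.51 ± 0.16, 0.010), Mtfr1l (-0.34 ± 0.040, 1.5e-07) and Mfn2 (-0.38 ± 0.051, 9.4e-07). Fis1 was under 1.2-fold in this comparison without WT MK-8722 replicate 1, 3 or 4 or WT torin1 replicate 3 or 4 (log2 -0.22 to -0.26), as it was with at least 10 counts in every library (-0.23), with the compared libraries fitted alone (-0.26) and with library size alone (-0.18), where Mtfr1l also fell under it (-0.24).

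The wider machinery was followed through 44 further genes, 42 of them tested (all but Gdap1 and Pld6). In each comparison, up to 3 called genes in each direction are named, by largest log2 fold change. A gene named for 1 genotype may therefore have changed in the other genotype too. Torin1 raised 5 and lowered 13 of the 42 in WT and raised 5 and lowered 12 in AMPK KO cells, with list medians of -0.15 on the log2 scale in both. The shares called were slightly below the 47.6% and 43.5% of all tested genes called in these comparisons. Of all tested genes, 21.1% in WT and 17.6% in AMPK KO cells were called lower with torin1. The single lists hold few genes, and whether a list moved as a whole was not tested. The genes of mitochondrial transport along the cytoskeleton had the lowest medians, -0.46 in WT and -0.40 in AMPK KO cells, with 3 of 6 lower and none higher in each. In WT cells Trak2, an adaptor between mitochondria and kinesin, fell from 91.1 ± 4.3 to 46.0 ± 3.3 CPM (log2 -0.98 ± 0.053, adjusted p = 3.6e-13) and Kif5b, a kinesin heavy chain, from 304 ± 11 to 163 ± 12 (-0.90 ± 0.042, adjusted p = 3.5e-14). In AMPK KO cells Myo19, a mitochondrial myosin, fell by 0.84 ± 0.076 (adjusted p = 2.3e-09).

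Of the 11 genes of the cristae-organising MICOS and MIB complexes, torin1 lowered 5 and raised 1 in each genotype. Apool rose in both, by log2 0.44 ± 0.076 in WT (adjusted p = 2.5e-05) and 0.67 ± 0.080 in AMPK KO cells (adjusted p = 1.5e-07). Micos10, among the named genes in AMPK KO cells only, fell there by 0.78 ± 0.048 (adjusted p = 4.6e-12). None of the 11 was called for the interaction of torin1 with genotype. Of the 11 accessory fission factors tested, torin1 raised 1 and lowered 3 in WT and raised 1 and lowered 2 in AMPK KO cells. Mtfr1, a paralogue of Mtfr1l, fell by 0.79 ± 0.060 and 0.73 ± 0.060 (adjusted p = 7e-11 and 4.9e-10), and Inf2, a formin that builds actin at division sites, rose by 0.45 ± 0.047 in WT cells (adjusted p = 1.6e-08). Of the 7 accessory fusion factors, 1 fell in WT, while 1 rose and 2 fell in AMPK KO cells, where Miga1 rose by 0.47 ± 0.099 (adjusted p = 3e-04). Of the 7 inner membrane proteases, 3 rose and 1 fell in WT and 2 rose in AMPK KO cells. Oma1, a protease that cleaves OPA1, rose from 9.98 ± 0.47 to 14.2 ± 1.4 CPM in WT (log2 0.51 ± 0.084, adjusted p = 1.3e-05), and Spg7 rose by 0.50 ± 0.042 in AMPK KO cells (adjusted p = 5.8e-10).

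MK-8722 raised 4 of the 42 related genes in WT cells and lowered none, a share near the 10.0% of all genes called higher. In AMPK KO cells edgeR and DESeq2 both called 0 of the 42 for MK-8722, with 12 at an unadjusted p below 0.05. The largest rises with MK-8722 in WT cells were in the protease subunit Spg7 (log2 0.47 ± 0.042, adjusted p = 1.1e-08), the SUMO protease Senp5 (0.35 ± 0.053, 2.3e-05) and the outer membrane protein Mtch2 (0.34 ± 0.033, 5.3e-08). The interaction with genotype was called for 4 of the 42 for MK-8722 and 4 for torin1, where 12.8% and 7.07% of all genes were called. AMPK KO cells differed from WT in DMSO at 21 of the 42, 11 higher and 10 lower, a share below the 56.9% of all genes called. The ubiquitin ligase Marchf5 was higher (146 ± 0.82 against 96.9 ± 1.3 CPM, log2 0.59 ± 0.032, adjusted p = 6.9e-14), as were the rhomboid protease Parl (0.69 ± 0.047, 4.7e-12) and Samm50 of the outer membrane (0.53 ± 0.038, 1.2e-11). Spire1, an actin nucleator, was lower (57.5 ± 2.0 against 140 ± 3.9 CPM, log2 -1.29 ± 0.047, adjusted p = 5e-17), as were Apool (-0.78 ± 0.080, 6e-09) and Kif5b (-0.55 ± 0.042, 3.9e-11).

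The promoter windows of the 10 genes, 250 bases before to 50 after each RefSeq start site, were searched on both strands for 5 short motifs. CACGTG, the E-box core read by TFEB and TFE3, was in a window of 1 gene, Mief2, and in 7.2% of all 32851 windows. CCAAT was in windows of 7 genes (37.4% of all windows), CGGAAG, the ETS core, in windows of 6 (16.9%), GCATGCG, part of the NRF1 element, in 1, Opa1 (3.6%), and AAGGTCA, a site of estrogen-related receptors, in none (4.7%). Several genes have more than 1 window, so counts of genes are not directly comparable with shares of windows. The 100 bases before the start site are shown for Fis1 and Mief2, which torin1 lowered (Mief2 in AMPK KO cells), and for Opa1, which was higher in AMPK KO cells, with matches to the motifs in capitals (ATTGG is CCAAT read on the other strand, and the 8 capitals in Opa1 hold GCATGCG once on each strand, overlapping).
Fis1, chr5:136953175-136953274, plus strand: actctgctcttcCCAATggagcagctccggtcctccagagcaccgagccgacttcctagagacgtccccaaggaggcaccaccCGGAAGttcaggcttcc
Mief2, chr11:60728298-60728397, plus strand: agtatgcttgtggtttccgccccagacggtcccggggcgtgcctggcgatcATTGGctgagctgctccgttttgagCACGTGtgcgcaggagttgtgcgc
Opa1, chr16:29579234-29579333, plus strand: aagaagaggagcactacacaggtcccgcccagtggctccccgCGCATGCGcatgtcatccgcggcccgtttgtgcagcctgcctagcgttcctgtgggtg
The E-box of Mief2 starts 24 bases before the start site. A match describes the letters in the window and no binding was measured. Under torin1, Mief2 had values of log2 -0.24 in WT and -0.45 in AMPK KO cells, as given above. Whether the match has any bearing on these values was not tested.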

How the data were processed

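The deposited values were estimated counts per gene, with estimated counts, TPM and effective lengths per transcript and library, which the authors made with STAR and Salmon on GRCm38 from Universal Plus mRNA-seq libraries; the strand setting of the counting is not given in the sources used here. Counts were rounded and tested with edgeR 4.0.16 (R 4.3.3): filterByExpr, TMM scaling, 6 group means in one quasi-likelihood fit and Benjamini-Hochberg adjustment over 15828 genes, with DESeq2 1.42.0 as an alternative. TPM, deposited per transcript, were summed per gene for levels. Transcript usage was tested with diffSpliceDGE on 52024 transcripts of 10768 genes. The scripts were tested on simulated data. The 10 genes, the related lists and the tests were chosen with earlier results of these data known. All 10 members were named. Of the related genes, up to 3 called in each direction, by largest log2 fold change, were named in each drug or genotype comparison. Nothing states that the 4 libraries of a group were separate cultures beyond their differing passage numbers, so p-values measure the spread between these libraries. Replicate numbers did not pair libraries (5 of 60 correlations above 0.1). Libraries of the same passage within a genotype deviated together more often (15 of 24 correlations above 0.1, against 0 of 72 between passages), and passage was tried as a block. Of the genes that overlap a member, the largest count in a library was 15 (C430014B12Rik, on the strand opposite to Mff). Sequences are from GENCODE transcripts (GRCm38) and RefSeq promoter windows (GRCm38.p6), in which all 10 genes were found. With 26900240 to 34192685 counts per library, counting error matters most for Mtfp1.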

Additional observations from a re-analysis of the deposited data

Results flagged for a closer look

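In 6 of the 60 sets of 4 libraries (10 genes in 6 groups), 1 library lay far from the other 3 by Dixon's test on CPM; chance gives about 1 in 20 sets, or 3 of 60. Mff was at 59.3 CPM in AMPK KO DMSO replicate 3 against 53.1 to 54.1 in the others, and at 57.4 in AMPK KO torin1 replicate 3 against 60.5 to 61.0. Fis1 was at 58.4 in AMPK KO DMSO replicate 3 against 64.9 to 65.7. Mief1 was at 38.9 in WT torin1 replicate 1 against 41.0 to 41.4, and Mfn1 at 59.9 in WT MK-8722 replicate 2 against 67.3 to 68.6. Mief2 was at 12.8 in AMPK KO torin1 replicate 1 against 12.3 to 12.4. AMPK KO DMSO replicate 3 appears in 2 of these; without it the Fis1 difference between genotypes was log2 0.28 (adjusted p = 0.00089) and passed 1.2-fold.

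The effect of MK-8722 on Opa1 differed between genotypes by -0.18 on the log2 scale (adjusted p = 0.028 by edgeR's interaction test), a difference under 1.2-fold. All 4 WT MK-8722 libraries were above all WT DMSO libraries, whereas in AMPK KO cells they overlapped. Leaving out any 1 library gave -0.22 to -0.15 with adjusted p from 0.0081 to 0.090, and the length offset gave -0.17 with an adjusted p of 0.10.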

How the results depend on the processing

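With the thresholds and libraries kept, most calls held. The replicate block changed none of the 80 member results (1, 3, 0, 5, 6 and 4 called, and 0 for each interaction, in the order MK-8722 in WT, torin1 in WT, MK-8722 in AMPK KO, torin1 in AMPK KO, genotype, torin1 against MK-8722), with transcript usage calls of 0, 2, 0, 0 and 0; 7 of 24 libraries correlated best with their own number. A passage block within genotype changed none of 70; AMPK KO against WT cannot be fitted with it, since the genotypes share no passage. DESeq2 size factors changed none of 80 calls. Library size alone left 3 members called for torin1 in AMPK KO, 2 for torin1 against MK-8722 in WT, and for the genotypes 6 higher and 0 lower in place of 4 and 2; the median gene was then at 0.15 in that comparison. MK-8722 in WT had 0 members called with no filter on low counts, with the compared libraries fitted alone and with DESeq2, each by the loss of Mtfp1, and with the length offset Mief2 took its place. On adjusted p alone, 4, 6, 8 and 7 members were called for MK-8722 in WT, torin1 in WT, torin1 in AMPK KO and torin1 against MK-8722, and 1 for the MK-8722 interaction; at 1.5-fold the first 4 counts were 0 and the genotypes gave 2 (Mief1 and Mtfp1). Members called for transcript usage under torin1 in WT were 1 with shares of estimated counts and 1 with at least 10 counts in every library.

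Leaving out 1 library at a time gave 0 to 1 members called for MK-8722 in WT, 3 to 4 for torin1 in WT, 0 to 0 for MK-8722 in AMPK KO, 4 to 5 for torin1 in AMPK KO, 5 to 6 for the genotypes, 3 to 4 for torin1 against MK-8722, 0 for both interactions, and 1 to 2 for transcript usage under torin1 in WT with 0 in the other 4 usage comparisons. None of the called values changed sign under any alternative run; among values called in neither fit, the sign changed for 10 of 80 with the length offset and 9 of 80 with library size alone. The cause of these changes was not tested, apart from the genes and libraries each setting removes. Depth limits Mtfp1 (27 to 206 counts) and Mief1-207 most.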
